A study of Arabidopsis thaliana with 27 samples.

Results

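The comparison asked how Arabidopsis leaves without CBP60g and CBP60h differ from leaves that have both genes, where PAD4 is missing in all of them, after infiltration with bacteria that cannot inject effector proteins. It set 3 arrays of the cbp60g,cbp60h,pad4 triple mutant against 3 arrays of pad4-1, which are 6 of the 27 arrays in the series. Each array was chosen by its label, and each triple array was paired with the pad4-1 array of the same numbered set. All leaves came from 4-week-old plants and had been infiltrated with Pseudomonas syringae pv. tomato DC3000 hrcC (hrcC below). Both genotypes were harvested 9 h after infiltration in sets 1 and 2 and 24 h after infiltration in set 3. The shared pad4 loss means that the contrast shows CBP60g and CBP60h loss without PAD4 and says nothing by itself about PAD4. Further arrays of the series serve as a frame: the cbp60g,cbp60h double mutant and wild-type Col-0 after hrcC in the same 3 sets and at the same times, and all 4 genotypes 24 h after Pseudomonas syringae ES4326 (Psm), 3 arrays each. The labels give both strains at the same density, without a unit. Each RNA sample pooled leaves from several pots.

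Leaf cells sense conserved bacterial molecules, such as flagellin, and answer with calcium influx, an oxidative burst, transcription of WRKY genes and, later, synthesis of salicylic acid. Salicylic acid then drives expression of a second layer of defence genes through the NPR1 coactivator and TGA transcription factors. CBP60g, which binds calmodulin, and CBP60h, now usually called SARD1, are transcription factors that bind the gene of the salicylic acid biosynthetic enzyme ICS1 and many other defence genes. PAD4 is a lipase-like protein that works with EDS1 upstream and alongside salicylic acid. The hrcC gene encodes a part of the type III secretion system, so an hrcC strain presents its surface molecules to the leaf but delivers no effectors.

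Of the 576 probes on each array, 181 carry a single gene name and are described here, and 395 are unnamed. Values are log2 brightness as deposited, with the base of the logarithm read from the values, so on that reading 1 unit is a 2-fold change. Array medians over all probes were lower in the triple mutant than in pad4-1 within each of the 3 sets, by a difference of -0.214 to -0.108. The median difference over the 181 genes was -0.06 as deposited, and it was 0.12 after each array was centred on its own median, 0.04 after quantile normalization and -0.03 after centring on the 50 steadiest probes. Differences are given as deposited, and those near 0 can turn with that shift. No 2 arrays shared more than 0.347% of their probe values, so none was a copy of another. No named probe stands for CBP60g, CBP60h or PAD4, so the genotypes could not be checked on these arrays, and 0 of 6 leaf mesophyll markers and 0 of 10 markers of guard cells, vasculature, epidermis and root were among the named genes. In whole leaves, fewer cells of a type and less RNA per cell cannot be told apart.

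GRX480 and AT1G76960 fell in the triple mutant, and no gene rose. These are 2 of 181 genes called lower (1.1%) and 0 called higher (0%) at an adjusted p under 0.05 by limma with the set as a block. As deposited, the triple array was below its pad4-1 partner in all 3 pairs for 56 genes (30.9%) and above it in all 3 pairs for 30 genes (16.6%). All 3 triple arrays lay below all 3 pad4-1 arrays for 24 genes (13.3%), and all 3 lay above for 10 genes (5.52%). At an unadjusted p under 0.05 there were 26 lower genes (14.4%) and 5 higher genes (2.76%). The balance of lower and higher genes depended on the scaling of the arrays. After centring each array on its median, 34 genes were lower and 64 higher in all 3 pairs, with 15 lower and 17 higher at an unadjusted p under 0.05. After quantile normalization 41 were lower and 49 higher in all 3 pairs, with 22 lower and 11 higher at an unadjusted p under 0.05, and centring on the steadiest probes gave 52 lower and 32 higher. GRX480 and AT1G76960 were called under each of these scalings, and the count stayed at 2. With 3 pairs, an exact two-sided sign-flip test of a single gene cannot go below 0.25, so the calls rest on limma's pooling of the spread over genes and over the 4 genotypes. Without the set block 0 genes were called (29 at an unadjusted p under 0.05), but the same 2 were called with harvest time as a covariate in its place. A fit of the 6 arrays alone called 14. The paired differences of the 181 genes correlated between sets with r of 0.605 for sets 1 and 2, 0.565 for sets 1 and 3, and 0.582 for sets 2 and 3, a description over genes that share arrays.

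GRX480, also called ROXY19, encodes a glutaredoxin that interacts with TGA transcription factors and is induced by salicylic acid. Its log2 level was 4.67, 5.31 and 3.46 in the triple mutant in sets 1 to 3, against 7.23, 7.76 and 5.77 in pad4-1. The groups did not overlap, and within each genotype the 24 h array was the lowest. The paired differences were close to each other at -2.56, -2.46 and -2.31. GRX480 averaged 4.48 ± 0.94 in the triple mutant and 6.92 ± 1.03 in pad4-1 (SD, n = 3 each), a difference of -2.44 (95% interval -3.09 to -1.79, adjusted p = 0.000718).

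AT1G76960, for which no function is given here, stood at 4.34, 4.22 and 3.02 in the triple mutant, against 6.17, 6.02 and 6.15 in pad4-1. The pad4-1 arrays were nearly level with each other, and the 24 h triple array stood apart below the other two. The gene fell by 2.26 on the log2 scale (SE 0.39, adjusted p = 0.00928), with means of 3.86 ± 0.73 in the triple mutant and 6.12 ± 0.08 in pad4-1 (SD, n = 3 each). Its paired differences were -1.83, -1.80 and -3.13. Without set 3 the difference was -1.82 and its adjusted p 0.358, without the set 3 array of the triple mutant it was -1.999 with an adjusted p of 0.102, and without that of pad4-1 it was -1.93 with an adjusted p of 0.0654, so the call rests partly on the 24 h pair. It was also not called without the set 1 array of the triple mutant (-2.28, adjusted p = 0.0589) or without set 2 (-2.48, adjusted p = 0.0880).

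**Figure D1:**
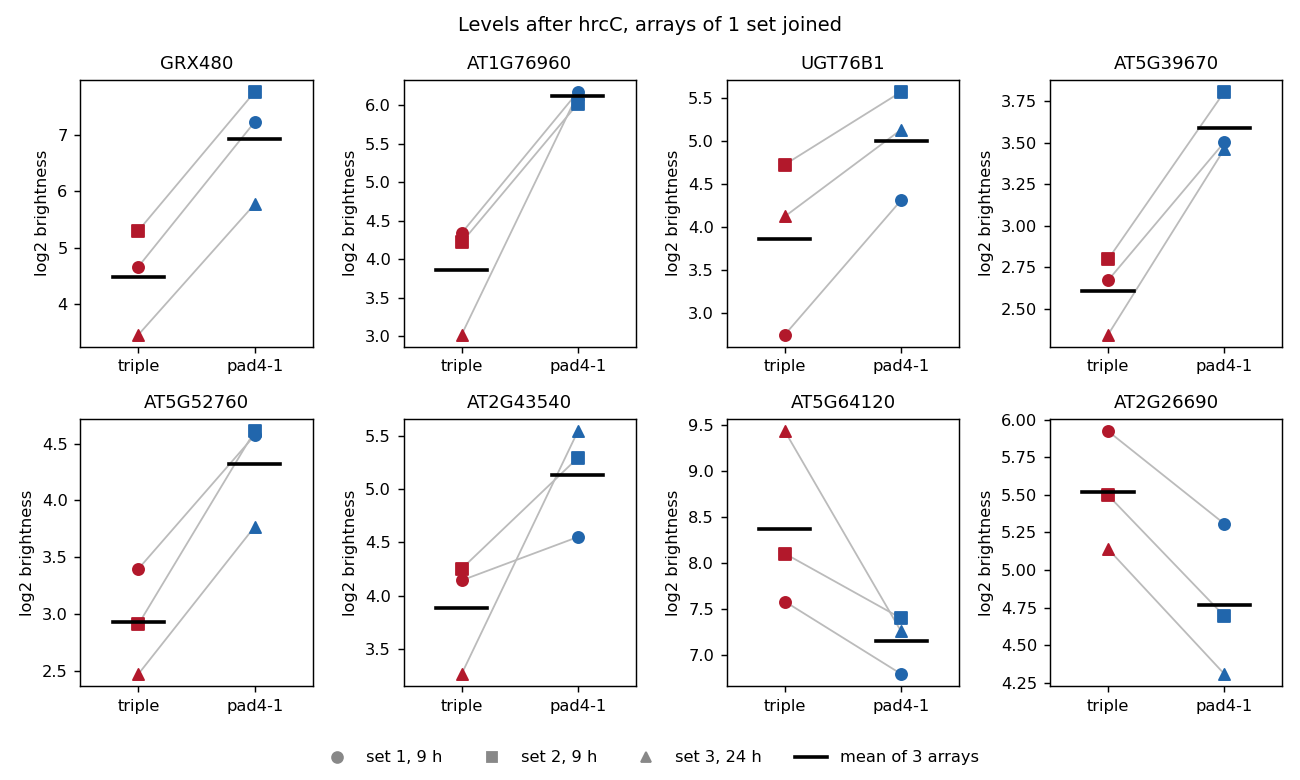
Log2 brightness after hrcC of 8 genes in the triple mutant (red) and pad4-1 (blue). Circles are set 1 and squares set 2 (9 h), triangles are set 3 (24 h), grey lines join the 2 arrays of a set, and bars are means of 3 arrays. Every line runs up to pad4-1 for the 6 genes that are lower in the triple mutant, and down to pad4-1 for AT5G64120 and AT2G26690. The vertical axes differ between panels and do not start at 0.

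Salicylic acid genes other than GRX480 were few on the array. UGT76B1 encodes a glucosyltransferase that conjugates salicylic acid and isoleucic acid and restrains defence. Its level was 2.75, 4.73 and 4.12 in the triple mutant, against 4.31, 5.57 and 5.13 in pad4-1. The value of 2.75 lay under 3, the log2 minimum below which a gene's mean was treated as dim. The groups overlapped, with set 1 low and set 2 high in both genotypes, and every triple array was below its own partner. The difference was -1.14 (95% interval -1.80 to -0.48, adjusted p = 0.0743), not called. WRKY53, a transcription factor gene that responds to salicylic acid, was 4.34, 4.18 and 4.14 in the triple mutant, against 4.42, 3.62 and 3.84 in pad4-1. Here the groups overlapped, the pairs disagreed in sign, and the difference was 0.25 (95% interval -0.34 to 0.84, adjusted p = 0.692).

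PDF1.2 encodes a plant defensin that is induced by jasmonate together with ethylene and is commonly used as the marker of that pathway. It read 5.93, 5.95 and 5.69 in the triple mutant, against 7.40, 6.82 and 7.59 in pad4-1. The groups did not overlap and the triple arrays were closely alike. The difference of -1.41 was not called (95% interval -2.63 to -0.20, adjusted p = 0.196). In the fit of these 6 arrays alone, which called 14 genes, its adjusted p was 0.0296.

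**Figure D2:**
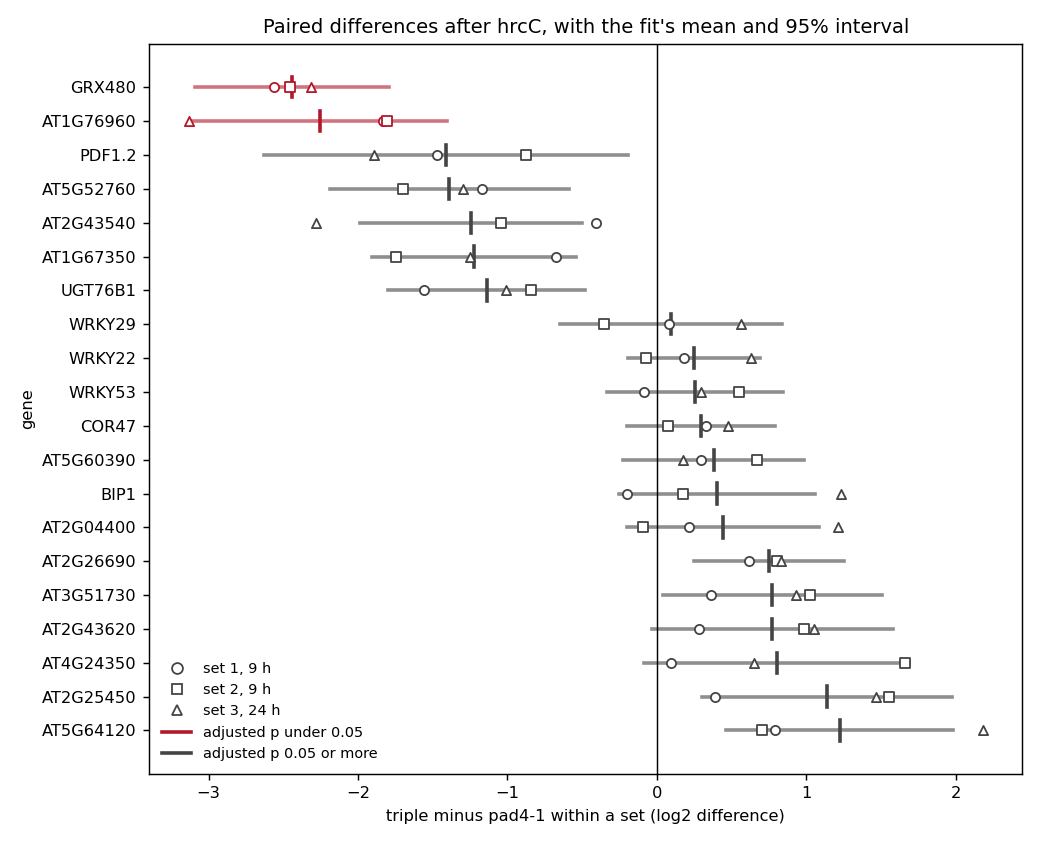
Triple minus pad4-1 log2 difference after hrcC within each set (circle set 1, square set 2, triangle set 3) for 20 genes, ordered by the fitted mean (vertical tick) with its 95% interval (horizontal bar). GRX480 and AT1G76960, in red, have adjusted p under 0.05. The other 18 genes, in grey, do not.

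AT5G39670 encodes a protein with EF-hand motifs, the loops with which calmodulin and its relatives bind calcium. It stood at 2.67, 2.80 and 2.34 in the triple mutant, against 3.50, 3.81 and 3.46 in pad4-1, with no overlap, a difference of -0.99 and an adjusted p of 0.0743. Its triple values all lay under the dim minimum of 3. AT4G27280, another EF-hand gene, differed by -1.07 (adjusted p = 0.151), and CML42, a calmodulin-like gene linked to trichomes and herbivory, by -0.996 (adjusted p = 0.151), each lower in all 3 pairs. Without the set 2 array of pad4-1 the CML42 difference was -0.57 (adjusted p = 0.598). AT2G41410 differed by -1.01 (adjusted p = 0.196), but its pairs were -0.89, 0.04 and -2.19, and without set 3 the difference was -0.43. AT2G41090 differed by 0.15. Of the 5 EF-hand genes on the array, 3 were lower in all 3 pairs, against 56 of all 181 genes (30.9%), and 0 were called. Their median difference was -0.996, against -0.06 over all 181 genes. This is 1 of 13 families put together after values had been seen, and in others 4 of 7 UDP-glycosyltransferase genes and 3 of 6 chaperone genes were also lower in all 3 pairs, with medians of -0.15 and -0.26. So were 2 of 2 AAA-type ATPase genes and 2 of 3 heavy-metal-associated domain genes, with medians of -0.38 and -0.51. The sign of each of the 5 EF-hand genes was the same under the 3 other scalings of the arrays. All 5, AT5G39670, AT4G27280, CML42, AT2G41410 and AT2G41090, were picked out after their values had been seen.

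AT5G52760 encodes a protein with a heavy-metal-associated domain. Its level was 3.40, 2.91 and 2.47 in the triple mutant, against 4.57, 4.61 and 3.77 in pad4-1. The values of 2.91 and 2.47 lay under the dim minimum of 3. The groups did not overlap, and the difference was -1.39 (95% interval -2.19 to -0.59, adjusted p = 0.0743). Its relatives on the array did not move alike: AT5G60800 differed by -0.51 (adjusted p = 0.464) and AT2G36950 by 0.58 (adjusted p = 0.134).

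AT2G43540 and AT1G67350 complete the 6 largest differences downwards with 1 sign in all pairs. AT2G43540 read 4.14, 4.25 and 3.26 in the triple mutant, against 4.55, 5.29 and 5.54 in pad4-1. The groups did not overlap, and the pairs ranged from -2.28 at 24 h to -0.41 in set 1, with a mean of -1.24 and an adjusted p of 0.0765. Without set 3 the difference was -0.72. AT1G67350 read 6.17, 5.74 and 5.50 in the triple mutant, against 6.85, 7.48 and 6.76 in pad4-1, again without overlap, and differed by -1.22 (adjusted p = 0.0743). The small heat shock protein gene AT2G19310, noted after its values were seen, was 6.37, 5.53 and 4.90 in the triple mutant, against 7.24, 6.83 and 6.39 in pad4-1. The highest triple array lay just under the lowest pad4-1 array, and the difference was -1.22 (adjusted p = 0.0765).

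On the higher side the values were smaller and none passed in the fit of the 12 hrcC arrays. AT5G64120, the class III peroxidase gene PRX71 of the cell wall, was 7.58, 8.10 and 9.44 in the triple mutant, against 6.79, 7.40 and 7.25 in pad4-1. The groups did not overlap, and the 24 h pair differed most, by 2.18. The mean difference was 1.23 (95% interval 0.46 to 1.99, adjusted p = 0.0805), and without the set 3 array of the triple mutant it was 0.71. AT2G26690 encodes NPF6.2, a member of the nitrate and peptide transporter family. It was 5.92, 5.50 and 5.14 in the triple mutant, against 5.31, 4.69 and 4.31 in pad4-1. Its groups overlapped, since both genotypes were highest in set 1 and lowest in set 3, but the 3 pairs were close to each other at 0.62, 0.80 and 0.83 (mean 0.75, adjusted p = 0.107).

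AT2G25450 encodes the dioxygenase that hydroxylates the side chain of aliphatic glucosinolates, the sulfur-rich defence compounds of the cabbage family. It stood at 7.94, 8.50 and 7.54 in the triple mutant, against 7.55, 6.94 and 6.07 in pad4-1, and differed by 1.14 (adjusted p = 0.134). The triple array of set 3 lay just under the pad4-1 array of set 1. Other genes higher in every pair were AT4G24350, of the phosphorylase superfamily, with 0.80 (adjusted p = 0.336), the chitinase family gene AT2G43620 with 0.77 (adjusted p = 0.307), and AT3G51730, which encodes a saposin B domain protein, with 0.77 (adjusted p = 0.248). AT2G43620 was among the brightest named genes, at 10.5, 10.7 and 10.9 in the triple mutant, against 10.2, 9.72 and 9.88 in pad4-1. The AT2G43620 difference was 0.18 after quantile normalization (adjusted p = 0.814) and 0.41 without the set 2 array of pad4-1 (adjusted p = 0.861). That array also carried much of the AT4G24350 difference, which was 0.17 without it (adjusted p = 0.945) and 0.37 without set 2. The other chitinase genes leaned the other way, CHI by -0.29 and AT4G01700 by -0.37, both with an adjusted p of 0.519.

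**Figure D3:**
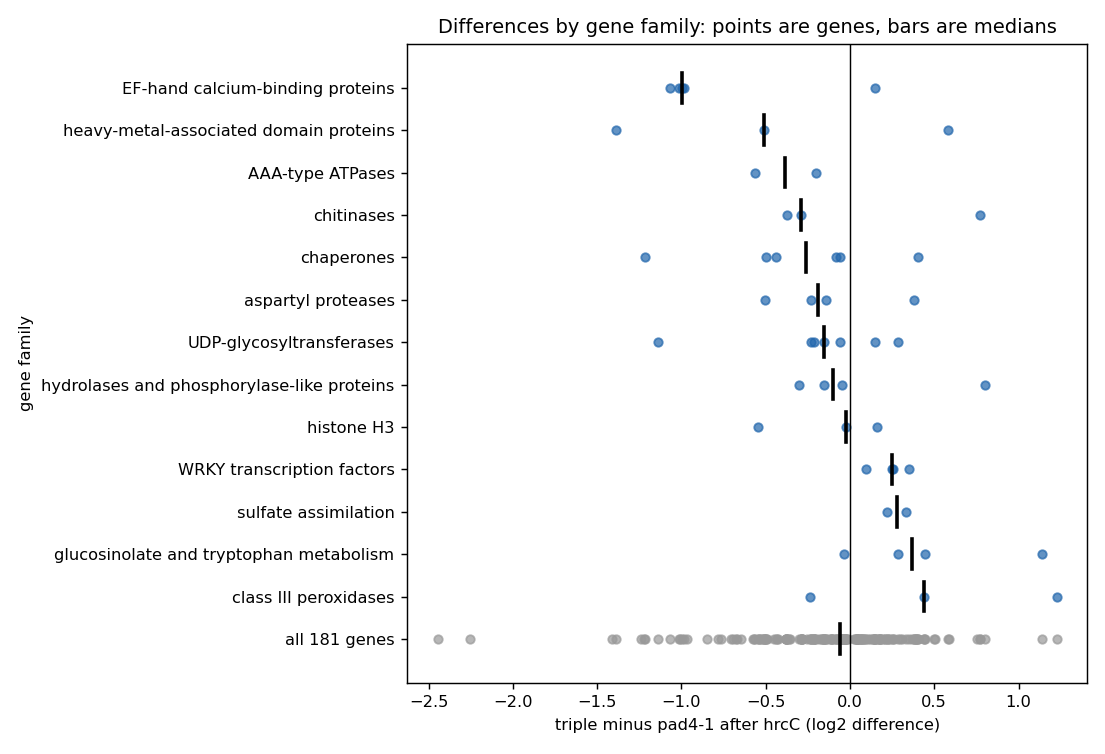
Triple minus pad4-1 log2 difference after hrcC for each gene (points) of 13 gene families and for all 181 genes (bottom row, grey). Bars are medians. The families were put together after values had been seen, and the median of the 5 EF-hand genes is -0.996 beside -0.06 for all genes.

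Of the 80 genes in the lists of defence pathways, housekeeping functions and leaf cell types, 10 were measured. Among these 10, 1 was called lower (GRX480) and 0 higher, against 2 lower (1.1%) and 0 higher of all 181 genes. The median of the 10 was 0.25, against -0.06 over all 181 genes. Among pattern-triggered genes, WRKY22 differed by 0.25 and WRKY29 by 0.10, transcription factors that act below flagellin perception, and neither had the same sign in all 3 pairs. WRKY6, outside the lists, differed by 0.35 and was higher in every pair. AT2G04400, which encodes indole-3-glycerol phosphate synthase of the tryptophan pathway that also feeds camalexin, differed by 0.44 (adjusted p = 0.464), and by 0.06 without set 3. BIP1, the Hsp70 chaperone of the endoplasmic reticulum, was 5.58, 6.64 and 7.77 in the triple mutant, against 5.78, 6.46 and 6.54 in pad4-1, and only its 24 h pair differed much (mean 0.40, adjusted p = 0.519, and 0.04 without the set 3 array of the triple mutant). The dehydrin gene COR47 differed by 0.30 and the elongation factor gene AT5G60390, a housekeeping gene, by 0.38. COR47 and AT5G60390 were higher in all 3 pairs.

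No gene passed the test of the 24 h pair against the 9 h pairs. The interaction of genotype and time called 0 genes lower (0%) and 0 higher (0%) by limma, with 5 lower (2.76%) and 5 higher (2.76%) at an unadjusted p under 0.05. Since 24 h is set 3 alone, time and set cannot be told apart, and 1 pair stands for 24 h. The lowest adjusted p was 0.515, shared by AT2G41410 (24 h minus 9 h difference -1.77), AT4G22470 (1.93) and the aspartyl protease gene AT1G03220 (1.77). AT1G03220 was 4.13 and 3.58 at 9 h and 3.74 at 24 h in the triple mutant, against 4.47 and 3.65 at 9 h and 2.18 at 24 h in pad4-1. For AT1G76960 the interaction was -1.31 (adjusted p = 0.993), so its larger 24 h pair was within the error of this test.

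Whether CBP60g and CBP60h loss changed a gene by another amount where PAD4 was present was asked by setting triple minus pad4-1 against double minus Col-0 in the same 12 hrcC arrays. This difference of differences was called lower for 4 genes (2.21%), GRX480, PDF1.2, AT2G19310 and AT1G67350, and higher for 0 genes (0%), with 23 lower (12.7%) and 10 higher (5.52%) at an unadjusted p under 0.05. GRX480 differed by -2.44 without PAD4 and by -0.27 with it, a departure of -2.17 (SE 0.42, adjusted p = 0.0390). Its double mutant arrays read 7.21, 7.12 and 5.95, and its Col-0 arrays 7.65, 6.87 and 6.59. In each set the triple array was below the arrays of the other 3 genotypes.

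PDF1.2 had the largest departure, -3.85 (SE 0.79, adjusted p = 0.0390). It rose by 2.43 in the double mutant, with 7.50, 7.68 and 8.04, against 7.21, 4.66 and 4.05 in Col-0. Sets 2 and 3 carried that rise, and in set 1 the Col-0 array was close to the double mutant. In the triple mutant PDF1.2 was thus below both pad4-1 and the double mutant, and above Col-0 in sets 2 and 3. For AT2G19310 the departure was -2.08 (SE 0.48, adjusted p = 0.0472), with a double minus Col-0 difference of 0.86. For AT1G67350 it was -1.97 (SE 0.44, adjusted p = 0.0472), with a double minus Col-0 difference of 0.75. These 4 calls were sensitive to single arrays: without the set 1 or set 3 array of the triple mutant, or the set 2 array of pad4-1, 0 genes were called, with 32, 27 and 26 genes at an unadjusted p under 0.05. Without the set 1 array of pad4-1 there were 7 calls, and without its set 3 array 1. Over the 6 settings with 1 triple or pad4-1 array left out, GRX480 was called in 3, PDF1.2 in 2, and AT2G19310 and AT1G67350 in 1 each. No double mutant or Col-0 array was left out, so how far the calls rest on those arrays was not tested.

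In double minus Col-0 itself, 5 genes were called lower (2.76%) and 1 higher (0.552%) after hrcC. UGT76B1 fell by 1.61 there, against a difference of -1.14 without PAD4 that was not called. BIP1 fell by 1.32 and CHI by 1.22 in the double mutant, against 0.40 and -0.29 for triple minus pad4-1. The difference of differences was not called for UGT76B1, BIP1 or CHI on the values as deposited. For BIP1 it was called higher after median centring (1.81, adjusted p = 0.0465) and after quantile normalization (1.69, adjusted p = 0.0480). It was also called higher for BIP1 after centring on the steadiest probes (1.83, adjusted p = 0.0484) and without dim genes (1.72, adjusted p = 0.0406). Across the 181 genes the contrasts with and without PAD4 correlated with r of -0.03, a description over genes.

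**Figure D4:**
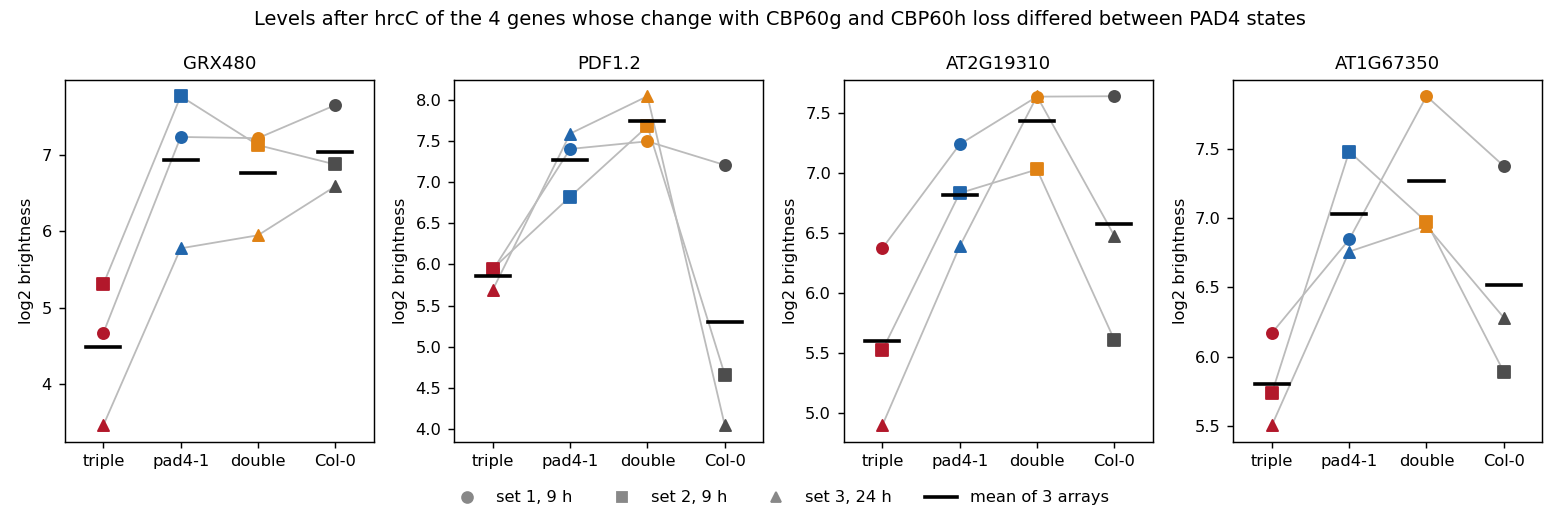
Log2 brightness after hrcC in the triple mutant, pad4-1, the double mutant and Col-0 (left to right) of the 4 genes for which triple minus pad4-1 differed from double minus Col-0. Circles are set 1, squares set 2 and triangles set 3, grey lines join arrays of a set, and bars are means of 3 arrays. GRX480 is lowest in the triple mutant in each set, while PDF1.2 is lowest in Col-0 in sets 2 and 3. The vertical axes differ between panels and do not start at 0.

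After Psm the same pair of genotypes gave 34 lower genes (18.8%) and 14 higher genes (7.73%) in the triple mutant, in a fit of 24 arrays that called 11 genes after hrcC. Strain and, in sets 1 and 2, time differ together between the treatments, and set 3 holds both at 24 h. AT1G76960 fell by 2.54 after Psm (adjusted p = 0.000269), against 2.26 after hrcC, and hrcC minus Psm was 0.28 (adjusted p = 0.794). GRX480 fell by 1.46 after Psm (adjusted p = 0.000626), with levels of 7.88, 6.67 and 6.73 in the triple mutant, against 8.70, 8.45 and 8.52 in pad4-1. The difference between its contrasts, hrcC minus Psm, was -0.98 (adjusted p = 0.139), so a larger fall after hrcC was not shown. UGT76B1, AT5G39670 and AT5G52760 fell after Psm by 2.42, 2.06 and 2.10, and AT2G26690 rose by 0.80. After hrcC this fit of 24 arrays also called UGT76B1 (adjusted p = 0.0255), AT5G52760 (adjusted p = 0.0275) and AT2G26690 (adjusted p = 0.0271), which the fit of the 12 hrcC arrays did not. It likewise called AT5G64120 higher, and AT2G43540, AT1G67350 and AT1G64710 lower (adjusted p = 0.0224 each). AT2G19310 (adjusted p = 0.0275) and AT4G32930 (adjusted p = 0.0337) were called lower too. None of UGT76B1, AT5G39670, AT5G52760 and AT2G26690 passed the test of the difference between treatments, the nearest being UGT76B1 with 1.28 (adjusted p = 0.0615).

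The difference between treatments was called for 13 genes (7.18%), with 5 lower (2.76%) and 8 higher (4.42%) in the hrcC contrast. At an unadjusted p under 0.05 there were 13 lower (7.18%) and 27 higher (14.9%). In the settings with 1 array left out, only hrcC arrays of the triple mutant and pad4-1 were dropped, never a Psm array. PDF1.2 had the largest difference between treatments, -2.77 (SE 0.80, adjusted p = 0.0434). It was not called with any of the 6 arrays left out in turn, where the difference lay between -3.01 and -2.43 and the adjusted p between 0.0584 and 0.124. Its pairs were -1.47, -0.87 and -1.90 after hrcC and 1.42, 1.13 and 1.52 after Psm, so the genotypes stood in opposite order in all 3 sets, also in set 3 with both treatments at 24 h. Its Psm levels were 5.91, 5.52 and 4.50 in the triple mutant, against 4.48, 4.40 and 2.98 in pad4-1, a difference of 1.36 (adjusted p = 0.0944), and neither contrast was called alone. The alcohol dehydrogenase-like gene AT1G64710 had the same order, with -0.71 after hrcC and 0.47 after Psm, a difference of -1.17 (adjusted p = 0.0214), called in 4 of the 6 settings with 1 array left out. Unlike PDF1.2, AT1G64710 was called on both sides in the fit of 24 arrays, lower after hrcC (adjusted p = 0.0224) and higher after Psm. The fit of the 12 hrcC arrays did not call it after hrcC.

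The other 11 of the 13 genes were called after Psm and not after hrcC. Over all 181 genes 48 were called after Psm, and the same Psm arrays enter both tests, so the overlap is partly built in. AT1G54010, which encodes a GDSL lipase-like protein linked to myrosinase, differed by -0.16 after hrcC and rose by 1.51 after Psm (difference -1.67, adjusted p = 0.0262, called in 5 of those 6 settings). AT4G24340 of the phosphorylase superfamily differed by -0.05 and rose by 1.16 (difference -1.21, adjusted p = 0.0434). The AAA-type ATPase gene AT3G28540 differed by -0.57 after hrcC and fell by 2.05 after Psm (difference 1.48), and AT3G13950 differed by -0.67 and fell by 2.17 (difference 1.50). BIP1 fell by 1.15 after Psm (difference 1.55), the clock-linked gene CCL by 1.12 (difference 1.71), the cinnamyl alcohol dehydrogenase-like gene AT1G09500 by 1.38 (difference 1.61) and WRKY53 by 1.12 (difference 1.38). Of those 6 settings, AT4G24340, AT3G13950 and WRKY53 were called in 1 each, BIP1 in 2, AT3G28540 and CCL in 3 each, and AT1G09500 in 0. All 6 kept every Psm array, so how far these calls rest on single Psm arrays was not tested. After hrcC BIP1, CCL, AT1G09500 and WRKY53 had differences of 0.24 to 0.59.

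Single hrcC arrays also decided how many of these were called. Without the set 3 hrcC array of the triple mutant 0 of the 181 genes were called, with 28 at an unadjusted p under 0.05. Without its set 1 or set 2 array 6 and 1 were called, and without the pad4-1 arrays of sets 1 to 3, 9, 5 and 3 were. Across the 181 genes, triple minus pad4-1 after hrcC and after Psm correlated with r of 0.443, a description over genes that share arrays.

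**Figure D5:**
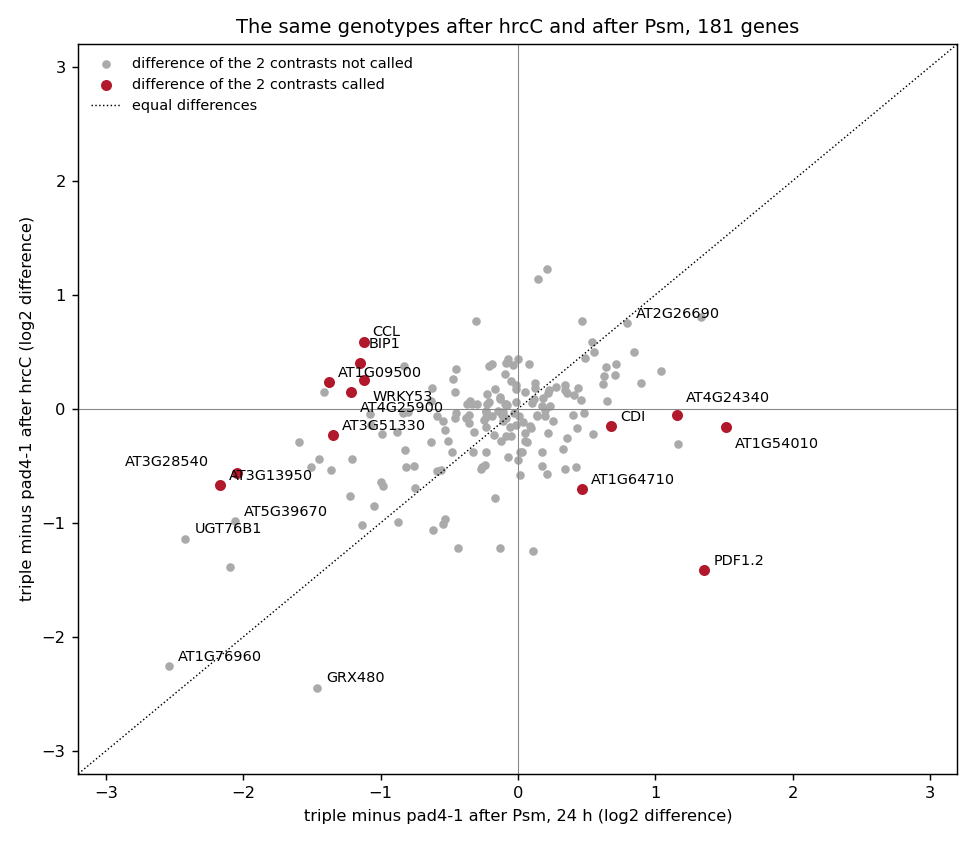
Triple minus pad4-1 log2 difference after hrcC (vertical axis) against the same difference after Psm (horizontal axis) for 181 genes. Red points are the 13 genes whose 2 differences differed at an adjusted p under 0.05, and the dotted line marks equal differences. AT1G76960 lies near the line, GRX480 below it, and PDF1.2 lies at lower right, lower in the triple mutant after hrcC and higher after Psm.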

How the data were processed

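RNA of 27 leaf samples (2 leaves per plant pooled from 3 pots, per the labels) was amplified, labelled with 1 dye and hybridised to arrays of 576 probes. The log2 values were used as deposited by the authors. No scanner, background correction, normalization or logarithm base is named in the labels or the file header. Values run from 0.663 to 11.4. Probes were named from the platform annotation, and all 181 single names matched the reference gene table (TAIR10.1, names only). The table gives neither counts nor signal over background, so the number of arrays limits precision. The labels call the 3 sets biological replicates.

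limma 3.58.1 in R 4.3.3 (lmFit, eBayes, two-sided, Benjamini-Hochberg over 181 genes, threshold 0.05) was fitted to the 12 hrcC arrays of Col-0, double, pad4-1 and triple, with genotype and set as a block. The arrays were paired by set number. Deviations from the group means correlated within sets by 0.579, 0.329 and 0.558, and across sets 1 and 2, both 9 h, by 0.026 and -0.046. Set 3 alone is 24 h, so harvest time enters these correlations. The comparison with Psm used 24 arrays with set within treatment as a block. The script was tested on simulated data. Other scalings, filters, fits and left-out arrays or sets were tried. Named genes are up to 12 called genes per direction with 1 sign in all 3 pairs, otherwise filled to the 6 largest such differences, up to 4 called genes per direction for the other tests, and the measured members of the lists; AT5G39670, AT4G27280, CML42, AT2G41410, AT2G41090, AT2G19310, AT5G60800, AT2G36950, CHI, AT4G01700, WRKY6, AT4G22470, AT1G03220, AT3G28540, AT4G32930, CDI, AT4G25900 and AT3G51330 were named after their values were seen. The members, lists and tests were chosen with earlier results of these data known.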

Additional observations from a re-analysis of the deposited data

Results flagged for a closer look

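For 13 genes, triple minus pad4-1 differed between hrcC and Psm by a test of that difference (limma, adjusted p under 0.05). The differences, hrcC minus Psm, were -2.77 for PDF1.2, -1.67 for AT1G54010, -1.21 for AT4G24340, -1.17 for AT1G64710 and -0.83 for CDI. They were 1.71 for CCL, 1.61 for AT1G09500, 1.55 for BIP1, 1.50 for AT3G13950, 1.48 for AT3G28540, 1.38 for WRKY53, 1.36 for AT4G25900 and 1.12 for AT3G51330. Of the 13, 12 were also called in triple minus pad4-1 after Psm, 8 of them lower and 4 higher. Over all 181 genes, 34 were called lower (18.8%) and 14 higher (7.73%) there. The same Psm arrays enter both tests, so the overlap is partly built in.

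For 4 genes, CBP60g and CBP60h loss after hrcC changed the level by another amount without PAD4 than with it. The differences were -3.85 for PDF1.2, -2.17 for GRX480, -2.08 for AT2G19310 and -1.97 for AT1G67350.

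Among the 395 unnamed probes, 1 was called in triple minus pad4-1 after hrcC when all 576 probes were fitted, and it was lower in the triple mutant.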

How the results depend on the processing

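The fit with the set as a replicate block called 2 genes in triple minus pad4-1 after hrcC. Without the block it called 0 (29 at an unadjusted p under 0.05), GRX480 then having an adjusted p of 0.0641 and AT1G76960 of 0.0608. With harvest time as a covariate in place of the block it called the same 2, with an adjusted p of 0.000314 for GRX480 and 0.00916 for AT1G76960. The count was 14 with the 6 compared arrays alone (13 lower, 1 higher), 11 with 24 arrays (9 lower, 2 higher), 4 with a trend in the spread and 1 with 9 h arrays only. Of the 14 and the 11 genes, 8 were in both: GRX480, AT1G76960, AT1G67350, AT2G19310, AT2G26690, UGT76B1, AT4G32930 and AT5G52760. Leaving out single triple or pad4-1 arrays gave 1 to 5 genes, and leaving out set 1, 2 or 3 gave 7, 1 and 1. GRX480 was called with any of these arrays or sets left out. AT1G76960 was not called without triple replicate 1 (-2.28, adjusted p = 0.0589), without set 2 (-2.48, adjusted p = 0.0880), without set 3 or with 9 h arrays only (-1.82), or without either replicate 3.

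Between hrcC and Psm, 13 genes were called, 0 without the replicate block (27 unadjusted) and 66 over all 576 probes (18 lower, 48 higher). Leaving out single hrcC arrays gave 6, 1 and 0 without triple replicate 1, 2 and 3. It gave 9, 5 and 3 without pad4-1 replicate 1, 2 and 3, and no Psm array was left out. Between PAD4 states, 4 were called, 0 without the replicate block (22 unadjusted) and 7 after quantile normalization (5 lower, 2 higher). There were 8 without dim genes (6 lower, 2 higher) and 14 over all probes (10 lower, 4 higher). Leaving out single triple or pad4-1 arrays gave 0 to 7, with 7 without pad4-1 replicate 1 and 1 without pad4-1 replicate 3. No double mutant or Col-0 array was left out. The 24 h minus 9 h test called 0 genes in every setting run; without either replicate 3 it could not be fitted.

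Some small differences after hrcC, none called, changed sign. WRKY29 was -0.13 without set 3 or with 9 h arrays only, and -0.25 to 0.31 with single arrays left out, being -0.10 without pad4-1 replicate 1. BIP1 was -0.011 without set 3 or with 9 h arrays only. AT1G54010 was 0.046 in those settings, 0.021 after median centring, and -0.38 to 0.14 with single arrays left out. AT4G24340 was 0.20 in those settings, 0.13 after median centring, 0.15 after quantile normalization, and -0.27 to 0.24 with single arrays left out, being 0.00037 without triple replicate 3. The cause of these changes was not tested.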
